A study of Homo sapiens with 5 samples.

Results

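S100A9-high and S100A9-low cells were compared within the 2 control samples of an MDA-MB-468 pool. MDA-MB-468 is a human cell line grown from a triple-negative breast tumour. A cell was S100A9-high at 20 or more S100A9 UMIs (unique molecular identifiers, that is, counted RNA molecules) per 10000 UMIs of the cell, and S100A9-low below 4 per 10000. Together the classes held 2732 cells of the 5975 kept cells of the 2 controls, out of 14642 kept cells in all 5 samples and 21228 called cells. In the HA control 816 cells were high and 593 low of 3380 kept, and in the VPR control 975 were high and 348 low of 2595. S100A9 chose the cells, so its own level is a description only, and it was left out of every sum, total and test that follows.

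S100A9 and S100A8 are small calcium-binding proteins that pair into calprotectin, an abundant cytosolic protein of neutrophils and monocytes that epithelial cells also make. Calprotectin binds zinc and manganese and thereby starves microbes of metal, and outside the cell it is read as an alarm signal. Their genes lie in a cluster of S100 genes and cornified envelope genes on chromosome 1, and epithelia switch several of these genes on in inflammation and in squamous or secretory differentiation.

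The study raised FOSL1, the gene of the AP-1 subunit FRA-1, in the same line. All 5 samples were the MDA-MB-468 line, each stained with 1 hashtag antibody and sequenced together as a single 10x 3' v3 library: HA control, HA FOSL1, VPR control, VPR FOSL1 gRNA2 and VPR FOSL1 gRNA3. The labels do not spell out HA or VPR, and they mention 5-FU treatment for the series as a whole without saying whether these samples received it. The hashtags of the HA samples are named GOF in the deposited assignment and were taken as HA by elimination. Nothing in the labels says that the 2 controls came from separate cultures, so a difference repeated in both is a repeat within 1 pool, and p-values measure the spread between these samples only.

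The 2 classes had similar depth in each control. Median UMIs per cell were 14913 in high and 15882 in low cells of the HA control, and 15240 and 16879 in the VPR control. The median mitochondrial share of UMIs was 11.95% in high and 11.04% in low cells (HA), and 11.93% and 10.56% (VPR). Summed without S100A9, the 4 classes held between 6333930 and 16259463 UMIs. The cells were epithelial in both classes by summed markers (EPCAM, KRT7, KRT8, KRT18, KRT19, CDH1, CLDN4), at 5862 CPM (UMIs of a gene per 1000000 UMIs of the class) in high and 6481 CPM in low cells of the HA control and at 6594 and 7230 CPM in the VPR control.

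S100A9 varied over a single broad range in each control, without a gap at either cutoff. Its median was 32.7 per 10000 in high and 2.46 in low cells of the HA control, and 35.4 and 2.43 in the VPR control. The highest cell reached 169 per 10000 in the HA control and 142 in the VPR control, while 31 and 13 low cells had no S100A9 UMI. Between the cutoffs lay 1971 kept cells of the HA control and 1272 of the VPR control. Just outside the upper cutoff, at 18 to 20 per 10000, S100A8 was at 221 CPM (122 cells, HA) and 274 CPM (98 cells, VPR), and just inside it, at 20 to 22, at 259 CPM (104 cells) and 297 CPM (92 cells). At the lower cutoff S100A8 was at 23.0 CPM (184 cells, HA) and 25.4 CPM (114 cells, VPR) just inside, at 3 to 4 per 10000, and at 23.7 CPM (216 cells) and 26.4 CPM (125 cells) just outside, at 4 to 5.

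**Figure D1:**
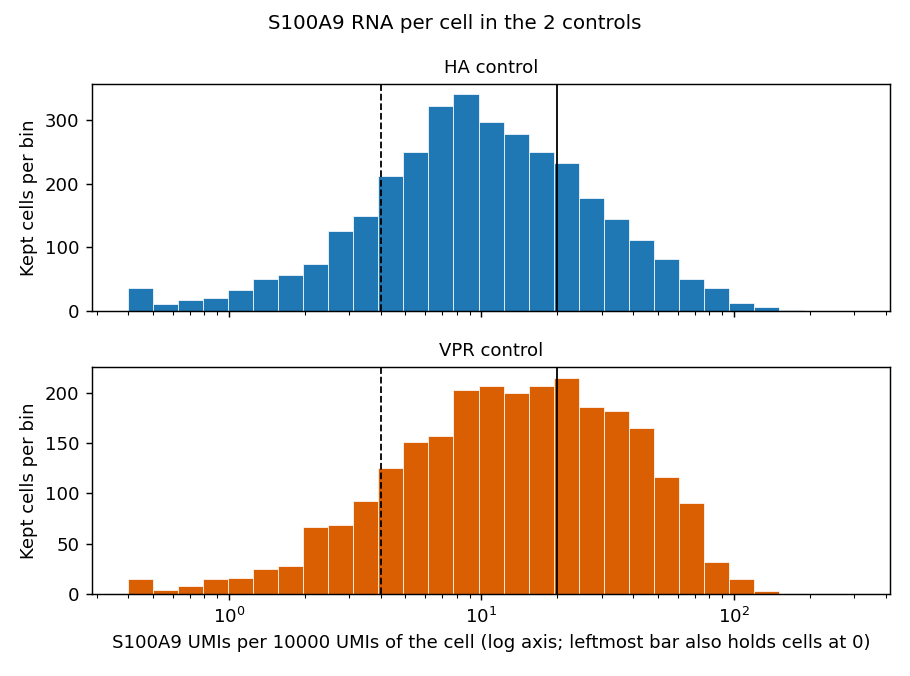
Number of kept cells (y axis) by S100A9 UMIs per 10000 UMIs of the cell (x axis, log scale) in the HA control (upper panel) and the VPR control (lower panel), with the cutoffs at 4 (dashed line) and 20 (solid line). Each control shows 1 broad hump that both cutoffs cross, with 37.6% of cells at 20 or more in the VPR control and 24.1% in the HA control.

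S100A9-high cells carried more RNA of S100A7, S100A8, SELENOP and secreted luminal genes such as SLPI and CRISP3 in both controls, and less of INHBA, DKK1, CAV1, TAGLN and KRT17. Among 5748 genes at a mean of 20 CPM or more over the 4 sums, 198 (3.44%) differed by 1.5-fold or more the same way in both controls, on the scale of log2(CPM + 1). Of these, 67 (1.17%) were higher and 131 (2.28%) lower in high cells. At 2-fold, 19 genes (0.331%) were higher and 49 (0.852%) lower. The HA and VPR ratios lay on the same side for 79.6% of the 5748 genes. edgeR's quasi-likelihood test, with the control as block, called 1873 genes higher (14.3%) and 1980 lower (15.1%) of 13074 at a Benjamini-Hochberg adjusted p under 0.05. That fit has 4 sums and 1 residual degree of freedom and takes its spread largely from all genes, so it calls small differences. DESeq2 called 368 genes higher and 486 lower, and all 854 were also edgeR calls in the same direction. Counts of edgeR calls within a list below are to be read against its 14.3% higher and 15.1% lower of all genes tested. "Called" below means called by edgeR. The size in each control is given beside it, with a 95% interval that covers counting error only.

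**Figure D2:**
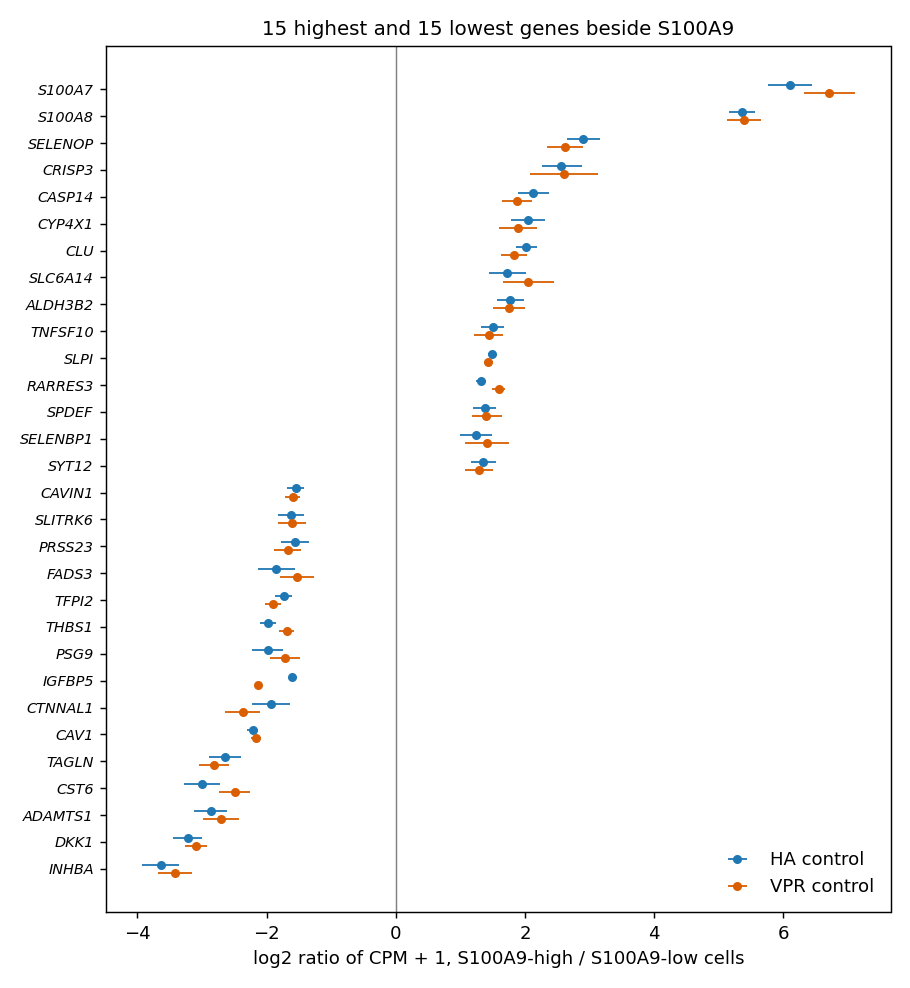
log2 ratio of CPM + 1, S100A9-high over S100A9-low cells (x axis), for the 15 highest and 15 lowest genes (y axis) in the HA control (blue) and the VPR control (orange), with bars for the 95% counting interval. S100A7 and S100A8 stand apart at ratios between 5.36 and 6.71. Each of the other genes lies on the same side of 0 in both controls, as the choice of these genes required.

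S100A7 (psoriasin, an antimicrobial S100 protein of skin and breast epithelium) was at 425 CPM in high and 5.21 CPM in low cells of the HA control, and at 796 and 6.63 CPM in the VPR control. Its log2 ratios were 6.10 (95% interval 5.77 to 6.44) and 6.71 (6.32 to 7.11). S100A8, the calprotectin partner of S100A9, was at 813 and 18.8 CPM (HA) and at 800 and 18.2 CPM (VPR), with log2 ratios of 5.36 (5.17 to 5.57) and 5.39 (5.13 to 5.65). S100A8 thus had nearly the same level in high cells of both controls, whereas S100A7 was higher in high cells of the VPR control. In droplets without a cell (10 to 100 UMIs), S100A8 made up 185 CPM and S100A7 167 CPM, above their levels in low cells. S100A9 itself made up 1201 CPM there, against 230 CPM (HA) and 237 CPM (VPR) in low cells with S100A9 counted. SELENOP (31.7 CPM), SLPI (418 CPM) and RARRES3 (263 CPM) were likewise above their levels in low cells. INHBA (55.4 CPM), DKK1 (131 CPM), CST6 (88.5 CPM), KRT17 (844 CPM) and FOSL1 (63.4 CPM), which are lower in high cells, were above their levels in high cells. CAV1 (691 CPM) was above its level in both classes. The share of free RNA in the lower class's UMIs, and in the S100A9 UMIs that set the classes, was not tested.

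The listed starts of S100A9 and S100A7 and 1 of the 3 listed starts of S100A8 hold a TATA box letter run at like distance. They are shown because S100A7 and S100A8, neighbours of S100A9, had the widest ratios between the classes. The range of S100A9 itself was set by the rule that chose the cells. Sequences are the 150 bases before the start in RefSeq (GRCh38.p14), on the gene's strand, with TATAAA in capitals. S100A9 lies at chr1:153357704-153357853 (plus strand), S100A8 at chr1:153391074-153391223 (minus strand, the second of 3 listed starts) and S100A7 at chr1:153460652-153460801 (minus strand).
S100A9: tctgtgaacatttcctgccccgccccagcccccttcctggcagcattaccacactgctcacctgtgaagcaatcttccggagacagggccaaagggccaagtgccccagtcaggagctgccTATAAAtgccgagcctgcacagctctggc
S100A8: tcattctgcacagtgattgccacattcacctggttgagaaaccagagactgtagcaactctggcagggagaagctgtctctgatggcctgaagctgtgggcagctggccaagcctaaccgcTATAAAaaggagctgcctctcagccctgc
S100A7: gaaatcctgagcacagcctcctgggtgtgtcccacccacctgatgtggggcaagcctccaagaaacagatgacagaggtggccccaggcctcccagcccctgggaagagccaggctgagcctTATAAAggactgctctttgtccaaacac
The run starts 29, 29 and 28 bases before the start, respectively. Of the other S100A8 starts, the first has no TATAAA in its 150 bases and the third has it 126 bases before the start. TATAAA was searched on both strands of the 250 bases before the start, and 13% of 27305 genes with a RefSeq promoter hold it there. Of the 15 highest genes, 9 had a promoter entry and 5 of these held TATAAA (S100A7, S100A8, SELENOP, CYP4X1, TNFSF10). A match is a description of the letters and says nothing of what binds there.

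The widest ratios on this stretch of chromosome 1 lay within 99.9 kb of S100A9, and farther away genes went both ways. S100A9 spans positions 153357854 to 153361023 (GRCh38.p14), S100A8 begins 32.2 kb and S100A7 99.9 kb above it. S100A7A, between them, was at 3.24 against 0.0982 CPM (HA) and 5.17 against 0.474 CPM (VPR), and as a near copy of S100A7 its counts are uncertain. PGLYRP4, a peptidoglycan recognition protein 27.7 kb below S100A9, was at 2.03 against 0.884 CPM (HA) and 2.03 against 0.158 CPM (VPR), near the limit of detection in both.

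S100A2, an S100 protein of basal epithelial cells 203 kb away, was lower instead, at 168 against 389 CPM (HA) and 123 against 262 CPM (VPR). S100A6, between S100A7 and S100A2, had log2 ratios of only 0.05 and 0.25. Of 16 other S100 genes listed, 13 were tested and 9 were called higher and 4 lower (S100A2, S100A3, S100A10, S100P). The 9 higher were S100A7 and S100A8 and, with small ratios, S100A1, S100A4, S100A6, S100A11, S100A13, S100A14 and S100A16. S100A14 had the largest of these at 20 CPM or more, with log2 ratios of 0.51 (0.44 to 0.57) and 0.72 (0.64 to 0.79). Of 60 protein-coding genes with a row in the span from S100A10 to S100A13, 16 reached a mean of 1 CPM and 11 reached 20 CPM, so most of the cornified envelope genes there were at or near 0 in both classes.

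**Figure D3:**
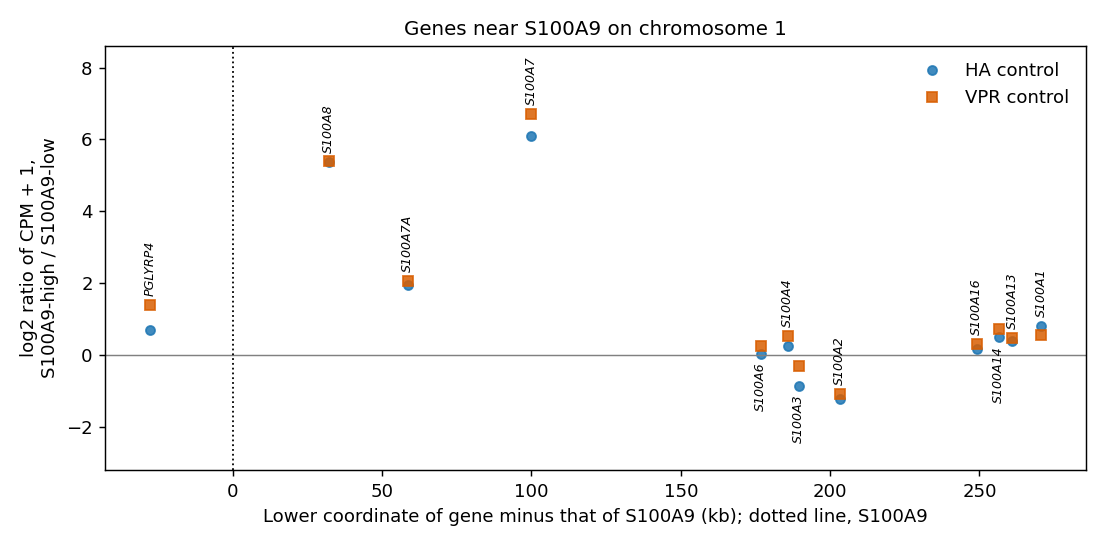
log2 ratio of CPM + 1, S100A9-high over S100A9-low cells (y axis), against distance from S100A9 in kb (x axis, from lower coordinates), for genes at a mean of 1 CPM or more from 27.7 kb below to 271 kb above it, HA control as circles and VPR control as squares. S100A8 and S100A7 lie above 5, S100A2 lies near -1.1, and the remaining genes lie between about -1 and 2.1.

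Within the high cells S100A8 and S100A7 were spread unevenly. After thinning each cell to 5000 UMIs, a S100A8 UMI was found in 81.1% (exact binomial 95% interval 78.2 to 83.7) of 813 high cells of the HA control and in 86.8% of 973 of the VPR control, against 9.12% of 592 and 7.47% of 348 low cells. S100A7 was found in 46.6% and 72.5% of high cells and in 2.70% and 2.59% of low cells. Without thinning, S100A7 was found in 64.0% and 86.9% of high cells and 8.09% and 9.20% of low cells.

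S100A8 and S100A7 occurred together in 40.8% (HA) and 66.0% (VPR) of the thinned high cells. Across these cells their Spearman correlation was 0.42 (813 cells) and 0.43 (973 cells), as a description of cells that share a library. S100A7 and SELENOP had correlations of 0.04 and 0.02. The tenth of high cells with the most S100A7 held 59.1% of its UMIs in the HA control and 42.9% in the VPR control.

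Secreted defence and luminal genes were higher in high cells. SLPI, an inhibitor of neutrophil elastase, was at 911 against 324 CPM (HA) and 741 against 274 CPM (VPR), with log2 ratios of 1.49 (1.43 to 1.54) and 1.43 (1.36 to 1.51). SELENOP, a secreted selenium carrier, was at 94.1 against 11.7 CPM and 105 against 16.3 CPM, with ratios of 2.91 (2.65 to 3.17) and 2.62 (2.35 to 2.90). CLU, a secreted chaperone, was at 133 against 32.1 CPM and 116 against 32.0 CPM. In all of these the high cells lay above the low cells in both controls, as the choice of the 15 highest genes required.

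CRISP3, a secreted cysteine-rich protein, was at 51.4 against 7.86 CPM (HA) and 23.3 against 2.9997 CPM (VPR), so that its ratios were alike (2.56 and 2.60) while its level was lower in the VPR control. PI3 (elafin), another elastase inhibitor, had log2 ratios of 1.35 and 0.94. Of 18 listed defence genes 11 were tested, and 6 were called higher (LCN2, SLPI, PI3, DEFB1, CLU, AGR2) and 1 lower (C3). LCN2 (lipocalin 2, which binds siderophores) differed little, at 208 against 164 CPM and 168 against 155 CPM, and DESeq2 did not call it. DEFB1, a defensin, had an edgeR log2 change of 0.57, and its call was lost with no replicate block (0.51), with cutoffs of 30 and 2 per 10000 (0.15), with cells thinned to 5000 UMIs (0.17) and in cells below the median of cell cycle UMIs (0.11).

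All 7 tested members of a luminal and apocrine list, which was drawn up after earlier results were seen, were called higher: AZGP1, PIP, MUCL1, CRISP3, SLPI, SPDEF and FOXA1. AZGP1, a secreted lipid-mobilising protein, was at 992 against 577 CPM (HA) and 928 against 487 CPM (VPR). SPDEF, an ETS factor of secretory epithelium, was at 79.0 against 29.9 CPM and 71.5 against 26.4 CPM, with ratios of 1.37 (1.19 to 1.56) and 1.40 (1.18 to 1.64). FOXA1, a pioneer factor of luminal cells, had ratios of 0.65 and 0.62. Of 8 tested luminal progenitor and secretory genes, 7 were called higher and none lower; MUC1, a membrane mucin, had ratios of 1.20 (1.03 to 1.39) and 1.08 (0.87 to 1.29), and CD24 0.58 and 0.61.

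Epithelial regulators leaned the same way. Of 18 tested, 10 were called higher (EHF, ELF3, KLF5, GRHL1, ZNF750, SPDEF, FOXA1, GATA3, NOTCH3, HES1) and TP63 was called lower. ELF3, an ETS factor of epithelial differentiation, was at 352 against 258 CPM (HA) and 382 against 231 CPM (VPR). TP63, the master factor of basal cells, was at 2.03 against 6.19 CPM and 1.11 against 2.84 CPM. DESeq2 called 5 of the 10 higher genes and not TP63.

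Retinoid-responsive genes, a list drawn up after earlier results were seen, were higher in 7 of 9 tested and lower in none. RARRES1, a carboxypeptidase inhibitor, was at 811 against 378 CPM (HA) and 946 against 351 CPM (VPR). RARRES3, a phospholipase, was at 434 against 174 CPM and 453 against 149 CPM. CRABP2, which carries retinoic acid to the nucleus, was at 690 against 386 CPM and 643 against 373 CPM.

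The remaining genes among the 15 highest have scattered roles. CASP14, the caspase of cornifying keratinocytes, was at 67.7 against 14.7 CPM (HA) and 92.7 against 24.5 CPM (VPR). Of 8 tested members of a cornified envelope list, which does not hold CASP14, 4 were called higher (CNFN, KRT4, DSC2, LCN2) and 2 lower (TGM1, KLK5), and DESeq2 called 1 in each direction. CYP4X1, a cytochrome P450, had ratios of 2.05 and 1.89 and ALDH3B2, an aldehyde dehydrogenase, 1.77 and 1.75. TNFSF10 (the death ligand TRAIL) had ratios of 1.498 and 1.44, SLC6A14, an amino acid transporter, 1.72 and 2.05, SYT12, a synaptotagmin, 1.35 and 1.28, and SELENBP1, a selenium-binding protein, 1.24 and 1.41.

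INHBA and DKK1 had the lowest ratios of the genes at 20 CPM or more. INHBA, the activin A subunit, was at 6.32 CPM in high and 89.96 CPM in low cells of the HA control, and at 7.32 and 87.5 CPM in the VPR control, with log2 ratios of -3.64 (-3.93 to -3.35) and -3.41 (-3.68 to -3.15). DKK1, a secreted inhibitor of WNT signalling, was at 11.7 against 118 CPM and 20.8 against 184 CPM, with ratios of -3.22 (-3.45 to -2.995) and -3.09 (-3.26 to -2.92). In both controls the classes lay far apart compared with the counting intervals.

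TGF-beta and BMP targets were called lower more often than higher. Of 15 tested, 10 were called lower, SMAD6 and BAMBI among them, and 3 (ID1, ID2 and ID3) higher. Over all genes 15.1% were called lower and 14.3% higher, so the count called higher was not far from that share. CTGF (CCN2), a matricellular protein, was at 74.0 against 208 CPM (HA) and 76.3 against 207 CPM (VPR), and TGFB2 at 51.6 against 80.4 CPM and 54.4 against 87.8 CPM. DESeq2 called 6 of the 15 lower and none of the ID genes.

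Caveola genes were lower together. CAV1, the membrane protein that shapes caveolae, was at 114 against 535 CPM (HA) and 135 against 610 CPM (VPR), with log2 ratios of -2.22 (-2.30 to -2.13) and -2.17 (-2.24 to -2.09). CAVIN1, the coat protein, was at 53.6 against 159 CPM and 66.3 against 202 CPM, and CAV2 at 110 against 241 CPM and 114 against 257 CPM. Of 6 tested genes of a caveola list, drawn up after earlier results were seen, 5 were called lower and none higher.

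YAP and TEAD target genes, again a list drawn up after earlier results were seen, were called lower in 18 of 20 tested and higher in none, with a median log2 ratio over all 22 of -0.47 (HA) and -0.61 (VPR), where all genes tested had medians of -0.026 and -0.0047. The largest differences among them, beside CTGF, were ANKRD1, a stress-responsive ankyrin protein, at 13.5 against 33.5 CPM and 14.1 against 35.5 CPM, and GADD45A, a stress-response gene, at 88.0 against 194 CPM and 110 against 225 CPM. DESeq2 called 14 of the 20 lower. GGAATG is the core of the site that TEAD proteins bind, and the stretches below, the 150 bases before the start of 3 lower genes in RefSeq (GRCh38.p14), show it in capitals, with TATAAA in capitals too where it occurs. CTGF lies at chr6:131951373-131951522 (minus strand), ANKRD1 at chr10:90921088-90921237 (minus strand) and DKK1 at chr10:52314131-52314280 (plus strand).
CTGF: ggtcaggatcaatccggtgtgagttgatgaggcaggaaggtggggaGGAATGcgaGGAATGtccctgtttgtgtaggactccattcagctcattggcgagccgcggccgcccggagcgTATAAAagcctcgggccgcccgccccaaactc
ANKRD1: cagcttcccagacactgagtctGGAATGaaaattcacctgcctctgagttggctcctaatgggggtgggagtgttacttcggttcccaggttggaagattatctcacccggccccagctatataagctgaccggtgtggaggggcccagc
DKK1: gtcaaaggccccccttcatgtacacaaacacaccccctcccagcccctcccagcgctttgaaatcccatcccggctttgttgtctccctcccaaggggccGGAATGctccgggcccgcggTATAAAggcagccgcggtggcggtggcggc
The match nearest the start begins 95 bases before it in CTGF, 128 in ANKRD1 and 50 in DKK1. DKK1 is not in the list of YAP and TEAD target genes. The same 150 bases of 2 other lower genes, INHBA and CAV1 (3 listed starts), hold no GGAATG. The share of the listed target genes that hold it was not counted, and a match is a description of the letters only. Searched on both strands of the 250 bases before the start, GGAATG occurs in 14.3% of 27305 genes, in 3 of the 10 genes with an entry among the 15 lowest (DKK1, THBS1, IGFBP5) and in 0 of the 9 with one among the 15 highest. The AP-1 site TGANTCA, where N is any base, occurs in 8.06% of all genes, in 2 of those 9 and in 2 of those 10.

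Cytoskeletal and matrix genes of the mesenchymal list were called lower in 6 of 7 tested and higher in none. TAGLN (transgelin, an actin-binding protein) was at 10.4 against 69.8 CPM (HA) and 10.8 against 81.6 CPM (VPR). CALD1 (caldesmon) was at 479 against 787 CPM and 420 against 782 CPM, and TPM2 (tropomyosin) at 260 against 422 CPM and 313 against 554 CPM. THBS1, a matrix glycoprotein, was at 48.5 against 194 CPM and 63.3 against 206 CPM.

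Basal keratins were called lower in 5 of 6 tested and higher in none. KRT17, a stress keratin of basal cells, was at 320 against 860 CPM (HA) and 376 against 1055 CPM (VPR), with ratios of -1.42 (-1.48 to -1.37) and -1.49 (-1.54 to -1.44). KRT16 was at 42.4 against 129 CPM and 57.4 against 144 CPM, whereas KRT5 differed less, at 190 against 309 CPM and 217 against 301 CPM. Of 5 simple keratins 4 were called lower and KRT19 higher. KRT23 was at 124 against 272 CPM and 124 against 293 CPM, with ratios of -1.12 and -1.24, whereas KRT18 (-0.36 and -0.37) and KRT8 (-0.33 and -0.31) differed less.

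IGFBP5, which binds insulin-like growth factors, was the most abundant of the 15 lowest genes. It was at 689 against 2091 CPM (HA) and 350 against 1529 CPM (VPR), with log2 ratios of -1.60 (-1.64 to -1.56) and -2.13 (-2.17 to -2.08), so that the difference was wider in the VPR control. The other lowest genes included ADAMTS1, a matrix metalloprotease (-2.86 and -2.70), CST6, a cysteine protease inhibitor (-2.996 and -2.49), TFPI2, a serine protease inhibitor (-1.74 and -1.90), PRSS23, a serine protease (-1.56 and -1.67), and PSG9, a pregnancy-specific glycoprotein (-1.98 and -1.71). CTNNAL1, a catenin-like protein, had ratios of -1.93 and -2.37, FADS3, a desaturase-like protein, -1.85 and -1.53, and SLITRK6, a membrane protein, -1.62 and -1.60.

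Inflammatory genes of the IL1 and NF-kB pathway were not higher with S100A9. Of 16 tested, 11 were called lower and 1 higher, against 15.1% and 14.3% of all genes. CXCL8, the neutrophil chemokine, was at 12.1 against 32.5 CPM (HA) and 11.3 against 28.3 CPM (VPR), and ICAM1, an adhesion molecule, at 33.9 against 81.4 CPM and 32.7 against 74.0 CPM. NFKBIZ, the nuclear IkB protein that turns on a secondary set of defence genes, was the one called higher, at 75.2 against 48.5 CPM and 80.7 against 40.3 CPM (edgeR adjusted p = 5.72e-34). DESeq2 called 5 of the 16 lower and NFKBIZ higher.

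Other stress and immune lists held both small and wide differences. Heat shock genes were called lower in 6 of 11 and metallothioneins in 3 of 4, with MT1E at 127 against 231 CPM (HA) and 156 against 326 CPM (VPR). MHC class I genes were called higher in 7 of 12 and lower in 1, with small ratios (B2M 0.25 and 0.24). Interferon-stimulated genes were called higher in 4 and lower in 4 of 18 tested, not far from the 14.3% and 15.1% of all genes. NRF2 targets were called higher in 5 of 12 and lower in 1, led by AKR1C2, an aldo-keto reductase, at 180 against 113 CPM and 194 against 90.8 CPM. Of the receptors of calprotectin, 4 of 7 were tested, and NPTN and MCAM were called lower. MCAM, an adhesion molecule, was at 5.42 against 25.6 CPM (HA) and 4.61 against 23.4 CPM (VPR), with log2 ratios of -2.05 and -2.12. Its ratios in the FOSL1 samples were -0.71 (HA FOSL1), -1.35 (gRNA2) and -0.36 (gRNA3). The interaction fit given below called it, close to the cutoff (edgeR adjusted p = 0.0446). DESeq2 called 2 of the heat shock genes, 3 of the metallothioneins and MCAM lower, 3 of the MHC class I genes and 3 of the NRF2 targets higher, and 1 interferon-stimulated gene in each direction. Over all genes DESeq2 called 368 higher and 486 lower.

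AP-1 subunits divided by member. FOS, FOSB, JUN and JUNB were called higher and FOSL1, FOSL2, JUND and ATF3 lower, of 12 tested. DESeq2 called FOSB, JUN and JUNB higher and FOSL1 and ATF3 lower, and not the other 3. FOS was at 89.5 against 59.0 CPM (HA) and 70.7 against 29.05 CPM (VPR), and JUNB at 129 against 97.3 CPM and 135 against 100 CPM. FOSL1 was at 4.36 against 17.97 CPM in the HA control and at 5.60 against 15.2 CPM in the VPR control, with ratios of -1.82 (-2.20 to -1.45) and -1.29 (-1.67 to -0.91). Each of these 4 levels was under the 63.4 CPM of FOSL1 in droplets without a cell. The genes that earlier results of these data gave as higher with FOSL1 were called lower here in 11 of 13, and those given as lower with FOSL1 were called higher in 8 of 12 and lower in 1 (IGFBP5). Those lists were chosen on these samples and are no independent evidence of a direction.

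Cell cycle genes, mitochondrial RNA and 1 myeloid marker differed between the classes as well. Mitotic genes were lower in high cells, with 18 of 21 called, for example PLK1 at 65.1 against 91.5 CPM (HA) and 66.2 against 93.6 CPM (VPR). Among cells below the median of cell cycle UMIs, a choice that uses such genes, 3 of them were called lower and 2 higher. Of 13 mitochondrially encoded genes 9 were called higher, and NEAT1, a nuclear RNA, had ratios of 0.36 and 0.39. In the low cell cycle cells, 65 genes were higher and 131 lower by 1.5-fold or more in both controls, and edgeR called 979 higher and 1077 lower. With at most 10% mitochondrial UMIs, 73 were higher and 148 lower by 1.5-fold, edgeR called 755 and 897, and 4 of the 21 mitotic genes were called lower. The part of cell cycle and mitochondrial RNA in the other differences was not tested.

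Of 12 myeloid markers, CD14 alone was called higher, at 23.8 against 7.66 CPM (HA) and 28.8 against 9.31 CPM (VPR). The 12 summed to 26.3 against 11.2 CPM and 31.8 against 12.95 CPM. PTPRC (CD45) and LYZ, which white blood cells make in quantity, were at most 0.196 CPM in every class, and MPO and TYROBP were at 0. Lymphoid markers summed to at most 0.376 CPM, fibroblast markers to at most 5.79 CPM and endothelial markers to at most 2.53 CPM.

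Cells between the cutoffs, which neither class holds, had intermediate levels. All 15 highest and all 15 lowest genes lay between the class levels in both controls, as did all 67 and all 131 genes past 1.5-fold, compared with 46.4% of the 5748 genes. Those sets were chosen for wide ratios between the classes in these controls, so intermediate levels were largely set in advance. The 46.4% takes in many genes that hardly differed between the classes, so the contrast tests nothing. S100A8 in the cells between the cutoffs was at 82.0 CPM (HA) and 98.7 CPM (VPR). Over 8 ranges of S100A9 in each control, 9 of the 15 highest genes rose at all 14 steps and 6 of the 15 lowest fell at all 14. CAV1 went from 614 CPM in the lowest to 87.2 CPM in the highest range of the HA control and from 684 to 94.5 CPM in the VPR control. These ranges share the S100A9 measure with the classes, so their order describes the grading and tests nothing.

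**Figure D4:**
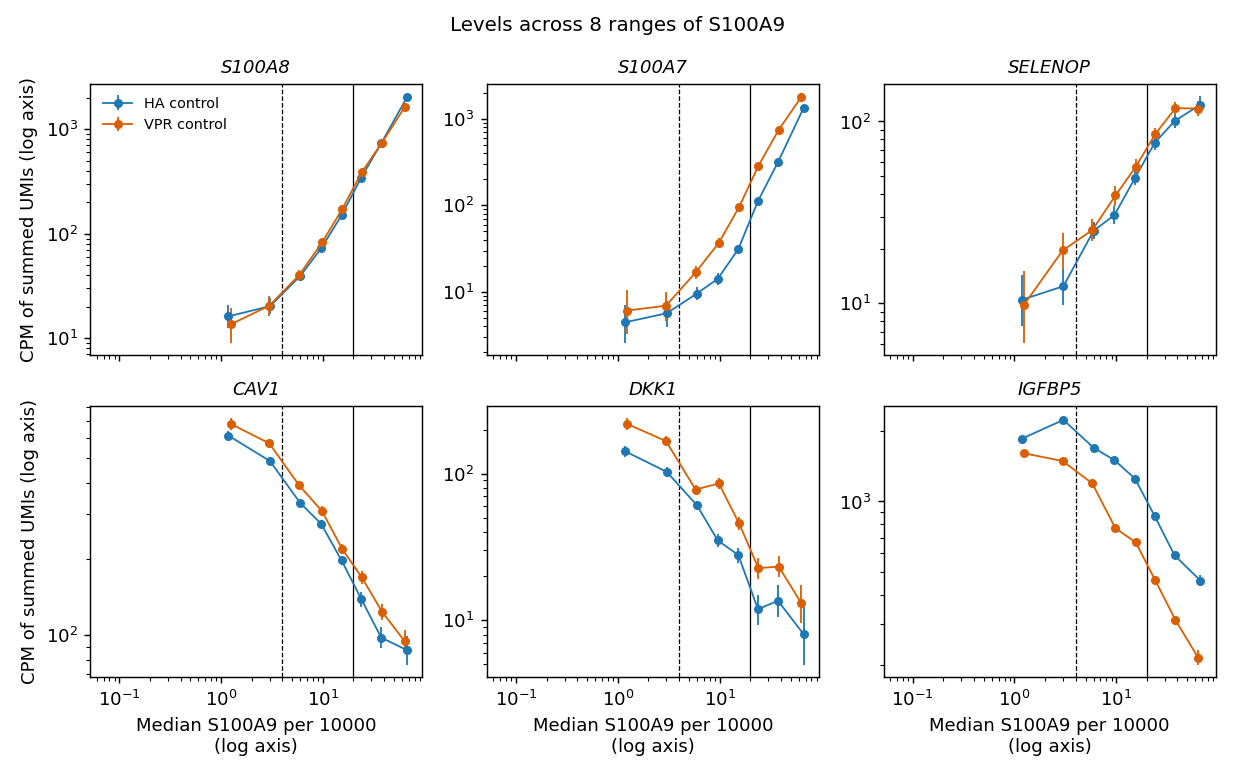
Level in CPM of summed UMIs (y axis, log scale) of 6 genes over 8 ranges of S100A9 (x axis, median of the range per 10000 UMIs, log scale) in the HA control (blue) and the VPR control (orange), with exact Poisson 95% intervals and the cutoffs at 4 (dashed) and 20 (solid). S100A8 rises from 16.2 to 2030 CPM in the HA control, and CAV1 falls from 614 to 87.2 CPM.

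The 3 FOSL1 samples, which the choice of members did not use, were divided at the same cutoffs. Their high cells also held less FOSL1 than their low cells, at 16.5 against 89.4 CPM (HA FOSL1), 51.3 against 120 CPM (gRNA2) and 49.8 against 112 CPM (gRNA3). The part of FOSL1 level in the differences between classes was not tested. These samples held fewer high cells: 169 of 1826 kept cells (9.26%) with HA FOSL1, 126 of 2542 (4.96%) with VPR FOSL1 gRNA2 and 261 of 4299 (6.07%) with gRNA3, against 24.1% and 37.6% in the controls. edgeR called 883 genes higher (6.69%) and 956 lower (7.25%) of 13192 in high cells of these samples. Of the 67 genes higher in the controls, 64 were higher in all 3 FOSL1 samples, where 24.2% of the 5748 genes were, and 62 were called. Of the 131 lower genes, 115 were lower in all 3, where 32.9% of genes were, and 105 were called.

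S100A7 had log2 ratios of 7.06 (HA FOSL1), 6.43 (gRNA2) and 6.69 (gRNA3), and S100A8 of 6.59, 5.74 and 5.69. SLPI had ratios of 1.92, 1.53 and 1.60, and CAV1 of -2.16, -1.58 and -1.52. S100A8 thus had a larger ratio in each FOSL1 sample than in either control. For S100A7 each FOSL1 sample lay above the HA control (6.10), but only HA FOSL1 lay above the VPR control (6.71). TFPI2 went the other way with HA FOSL1, at 0.97, against -1.30 and -0.56 with the guides, and was not called in the FOSL1 samples by edgeR (adjusted p = 0.675). CTGF and ICAM1 likewise had positive ratios with HA FOSL1 (0.35 and 0.80) and negative ratios with both guides. Of the 16 genes lower in the controls and not lower in every FOSL1 sample, 15 were on the other side with HA FOSL1, 1 with gRNA2 and 3 with gRNA3.

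A fit of all 5 samples with an interaction of class and FOSL1 state, added after the data were seen, tested whether the class difference itself differed. edgeR called 31 of 12926 genes (0.24%), 30 (0.232%) with a higher and 1 (0.00774%) with a lower log2 change in the FOSL1 samples. Neither S100A7 nor S100A8 was among them. IGFBP5 differed by 1.75 (SE 0.13, edgeR adjusted p = 8.43e-05), with ratios of -1.60 and -2.13 in the controls against -0.22, -0.21 and 0.13 in the FOSL1 samples. KRT17 differed by 0.92 (SE 0.08, edgeR adjusted p = 0.000135), with ratios of -1.42 and -1.49 against -0.43, -0.70 and -0.45. In both genes every FOSL1 sample lay closer to 0 than either control. IGFBP5 was chosen from the 15 lowest by control ratios, and that choice by itself favours smaller ratios in other samples. The single gene with a lower change was PPARG, a fat-cell nuclear receptor, at -1.47 (edgeR adjusted p = 0.0197). Its ratios were 0.73 (HA) and 0.49 (VPR) in the controls against -0.68 (HA FOSL1), -0.59 (gRNA2) and -0.77 (gRNA3). PPARG had a mean of only 5.82 CPM over the control sums, under the 20 CPM used to choose named genes. Without HA FOSL1 the fit called 115 genes higher and 33 lower.

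**Figure D5:**
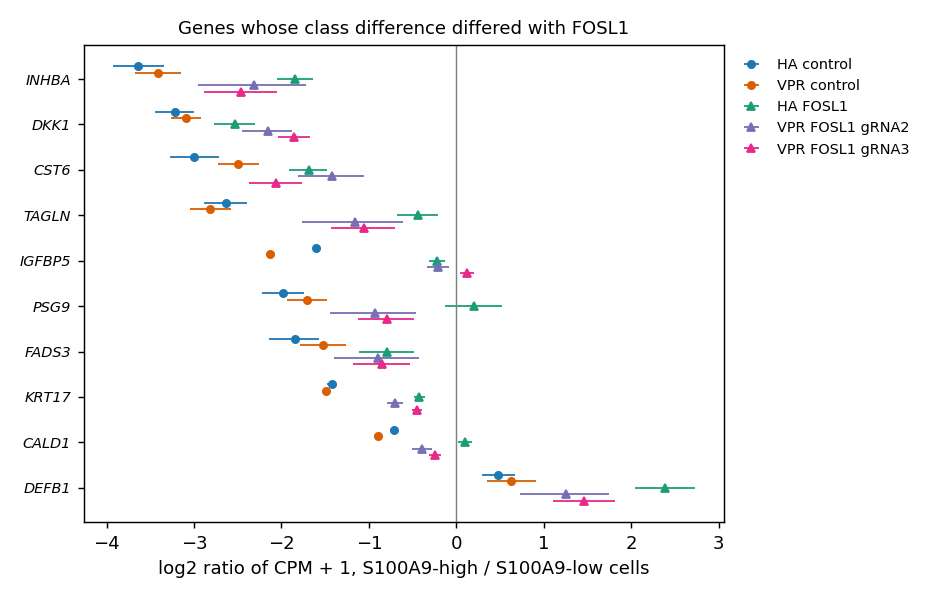
log2 ratio of CPM + 1, S100A9-high over S100A9-low cells (x axis), of the 10 named genes called in the interaction fit (y axis), in the 2 controls (circles) and the 3 FOSL1 samples (triangles), with 95% counting intervals. For 9 genes every FOSL1 sample lies above both controls and nearer to 0 or past it, and DEFB1 is higher in high cells by more in the FOSL1 samples.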

How the data were processed

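The authors deposited raw UMI counts of 33538 genes in 3314631 barcodes. Cell Ranger made them, per the submitters' processing notes (version 4 per the file headers, build hg38). A second deposited table holds, per called cell, the authors' hashtag call and its probability as a fraction; no source used here names its tool. Of 21228 called cells, 15371 (72.4%) were assigned to 1 sample, each at a probability of at least 0.9. Multiplets (5181), unassigned cells (402) and blanks (274) were left out, and doublets within 1 sample were not called.

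Cells with at least 1500 genes and at most 20% MT- UMIs were kept. S100A9-high cells had 20 or more and S100A9-low cells fewer than 4 raw S100A9 UMIs per 10000. UMIs were summed per class and sample with S100A9 left out, and CPM is over all remaining genes. Ratios are log2 of CPM + 1 with exact conditional binomial 95% intervals, levels by range have exact Poisson intervals and shares exact binomial (Clopper-Pearson) intervals, all for counting error only. The sums went into edgeR 4.0.16 (quasi-likelihood test, TMM factors, filterByExpr, sample as block, Benjamini-Hochberg over all genes tested). DESeq2 1.42.0 was an alternative. The sample is the block because both classes come from the same sample. Lower coordinates, promoters and gene names came from RefSeq (GRCh38.p14).

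Named genes are the 15 highest and 15 lowest by the smaller of the 2 controls' ratios among genes at a mean of 20 CPM or more whose intervals leave out 0 on the same side in both, with S100A8, FOSL1 and up to 4 members per list. List members below 20 CPM (CD14, TP63, S100A1, PGLYRP4, S100A7A, for example) were named after their values were seen. The members and gene lists were chosen with earlier results of these data known. One listed gene was removed from its list and is not reported here.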

Additional observations from a re-analysis of the deposited data

Results flagged for a closer look

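For 10 named genes the S100A9-high against S100A9-low change differed between the 3 FOSL1 samples and the 2 controls, by an interaction term in the edgeR fit of 5 samples. The log2 change in the FOSL1 samples minus that in the controls was 2.04 for TAGLN, 1.75 for IGFBP5, 1.57 for INHBA, 1.40 for PSG9, 1.35 for DEFB1, 1.03 for CST6, 1.02 for DKK1, 0.92 for KRT17, 0.88 for FADS3 and 0.61 for CALD1. The fit was added after the data were seen. For the 9 genes other than DEFB1, the ratio in each FOSL1 sample lay nearer to 0 than in both controls, or above 0, and for DEFB1 it lay farther above 0. INHBA, DKK1, TAGLN, CST6, PSG9, IGFBP5 and FADS3 were named because they were among the 15 lowest by control ratios. Smaller ratios in samples that did not choose them can follow in part from that choice, so the shift is a description. The FOSL1 samples' high classes hold 126 to 261 cells, and their low classes 1004 to 2319.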

How the results depend on the processing

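The counts of called genes in the controls (1873 higher, 1980 lower) fell to 368 and 486 with DESeq2, to 1003 and 1198 with no replicate block, to 762 and 853 with each cell thinned to 5000 UMIs, to 755 and 897 with at most 10% mitochondrial UMIs, and to 979 and 1077 in cells below the median of cell cycle UMIs. The counts past 1.5-fold (67 and 131) were 105 and 212 with cutoffs of 30 and 2 per 10000, 20 and 46 with 1 cutoff at 10, 166 and 276 at a minimum mean of 5 CPM, and between 83 and 110 higher and at 167 lower in a single control. In the FOSL1 samples (883 and 956) DESeq2 called 425 and 439, the fit with no replicate block 266 and 200, and leaving out 1 sample gave 510 to 1004 higher (fewest without gRNA3) and 601 to 1170 lower. The interaction gave 25 to 115 higher and 2 to 33 lower with 1 FOSL1 sample left out (most without HA FOSL1). The causes were not tested. All 15 highest and 15 lowest genes kept their direction and their call in 12 alternatives (180 values each). These genes were chosen for wide ratios in these controls, and the alternatives reuse cells of the same controls. That result was therefore largely set in advance. Directions turned for some named genes: IRF1 to -0.015, BSG to 0.0034 and AURKA (from -0.45) to 0.25 in cells below the median of cell cycle UMIs, BSG to 0.041 with cutoffs of 30 and 2 and to 0.052 thinned, SDF2L1 to 0.0096 with at most 10% mitochondrial UMIs, and HSPB1 to 0.018 over 5 samples. Genes at a few CPM rest on few UMIs and their ratios on the added 1 CPM.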

Other observations

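Over all genes tested in the controls, edgeR called 14.3% higher and 15.1% lower. Of 16 tested genes of EGFR ligands and MAPK feedback, 6 were called lower (AREG, HBEGF, EGFR, DUSP5, SPRY2, ETV4) and 4 higher (SPRY1, SPRY4, EGR1, IER3). EGFR, which MDA-MB-468 carries at high copy and which was among its abundant RNAs, was at 1669 CPM in high and 2232 CPM in low cells of the HA control and at 1554 and 2146 CPM in the VPR control. XBP1, a factor of the secretory pathway, was at 158 against 106 CPM (HA) and 138 against 87.1 CPM (VPR), while PSAT1 and DDIT3 of the same stress list were called lower. Of 13 sterol synthesis genes 3 were called lower and FDPS higher, with HMGCS1 at 91.1 against 155 CPM and 91.5 against 135 CPM. Hypoxia and glycolysis genes were called higher in 2 and lower in 7 of 19, with log2 ratios of -0.63 and -0.65 for EGLN3, a prolyl hydroxylase, and p53 targets lower in 4 of 12. The sterol counts and the count of higher hypoxia genes were not far from the shares over all genes.

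Junction genes were mixed. Of 13 tested, the claudins CLDN3, CLDN4 and CLDN7 were called higher and EPCAM, CLDN1, TJP1, DSP and DSG2 lower. Over all genes 14.3% were called higher and 15.1% lower. TJP1, a tight junction scaffold, was at 54.2 against 78.8 CPM (HA) and 61.3 against 82.1 CPM (VPR).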
